A study of Homo sapiens with 8 samples.

Results

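The genes described here build the cornified envelope, the desmosomes and the kallikrein protease system of stratified epithelia. They are a list of 49 genes, drawn up with earlier results of these data known, and a gene was taken where its symbol filled a row of its own in the deposited tables. By that rule 47 of the 49 genes were found in both tables, out of 42123 gene rows for MCF10A and 42153 for its NOTCH1-labelled derivative. JUP and KLK8 shared their rows with KRT17 and KLK9 and are given apart from the rest.

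Cells were MCF10A, an established human breast epithelial line that forms no tumours. The second kind of cell was a derivative of it, labelled as carrying extra NOTCH1 intracellular domain, the active form of this receptor. Each was exposed for 3 days to ginkgolic acid at 30 µM, a compound that inhibits SUMO conjugation, or to its solvent DMSO, which gave 4 groups of 2 RNA samples. The labels leave it unsaid whether these came from separate cultures. All groups grew in medium with horse serum and hydrocortisone, insulin, epidermal growth factor and cholera toxin. The sources used here do not describe the construct, its promoter or whether the derivative is 1 clone. The series title names the question, whether NOTCH1 activation alters the response to inhibition of SUMOylation.

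The cornified envelope is a protein shell laid down under the membrane of terminally differentiating squamous cells. Precursors such as involucrin, loricrin and the small proline-rich proteins are cross-linked by transglutaminases onto a scaffold of envoplakin and periplakin. Desmosomes tie neighbouring cells together through desmogleins and desmocollins, which plakoglobin and plakophilins link to desmoplakin and the keratin filaments. Kallikreins 5 and 7 are secreted serine proteases that cut desmosomal proteins during shedding, and the product of SPINK5 inhibits them. GRHL1, GRHL3 and ZNF750 are transcription factors of epidermal differentiation.

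The tables hold 1 FPKM value per gene and group, that is, fragments scaled by transcript length and library size, so levels of different genes can be set side by side per length. The spread between the 2 samples of a group, any test and the depth of the libraries are therefore missing, and "higher" and "lower" below compare 2 group values only. NOTCH1 itself stood at 11.4 FPKM with DMSO and 6.18 with ginkgolic acid in MCF10A. In the derivative it stood at 5.03 with DMSO and 12.4 with ginkgolic acid. The DMSO value of the derivative was thus the lower one, against its label, and the line is called NOTCH1-labelled throughout. Whether the columns of that table are as labelled was not tested, and an exchange of its DMSO and ginkgolic acid columns would turn the direction of every ratio given for that line. Epithelial markers were present in both lines: of 10 listed, 7 had a row of their own and at least 1 FPKM in the MCF10A table and 9 in the other, with CDH1 between 39.2 and 96.6 FPKM over the 4 groups. These markers also differed by treatment in MCF10A, where 4 of 7 were at least 2-fold lower (KRT14, CDH1, TP63 and ITGA6) and 1 higher, with a median log2 ratio of -1.07, beside 0.19 in the NOTCH1-labelled line. Summed FPKM of fibroblast markers was 23.1 with ginkgolic acid and 30.7 with DMSO in MCF10A, and 43.1 and 73.1 in the NOTCH1-labelled line. DCN was the largest of them in each group and most of the sum except in treated MCF10A cells, where it stood at 9.11 FPKM. The sums for leukocyte, endothelial and melanocyte markers lay between 2.75 and 17.5 FPKM in all 4 groups, and none of the markers with a row was listed at 0 in both groups of a line. The sum for luminal markers, mostly KRT8 and KRT18, was 355 with ginkgolic acid against 193 with DMSO in MCF10A and 576 against 198 in the NOTCH1-labelled line. Of 7 luminal markers measured in the latter, 2 were at least 2-fold higher and 3 lower (KRT19, PGR and ESR1), with a median log2 ratio of -0.59, so the sum and the median differ in direction. The part of these markers in the results was not tested.

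A gene counted as measured where it reached 1 FPKM in either group compared, and the size rule was a 2-fold difference. Of the 47 genes, 32 reached 1 FPKM in any group and 22 in all 4 groups. The other 15 stayed between 0 and 0.956 FPKM in every group: SPRR2A, SPRR2D, SPRR2E, SPRR2F, LOR, CALML3, CALML5, FLG, FLG2, HRNR, RPTN, CRNN, TGM3, DSG1 and DSC1. Loricrin, the filaggrin family and the skin-type isoforms DSG1 and DSC1, products of late epidermal differentiation, were in that low class in both lines.

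**Figure D1:**
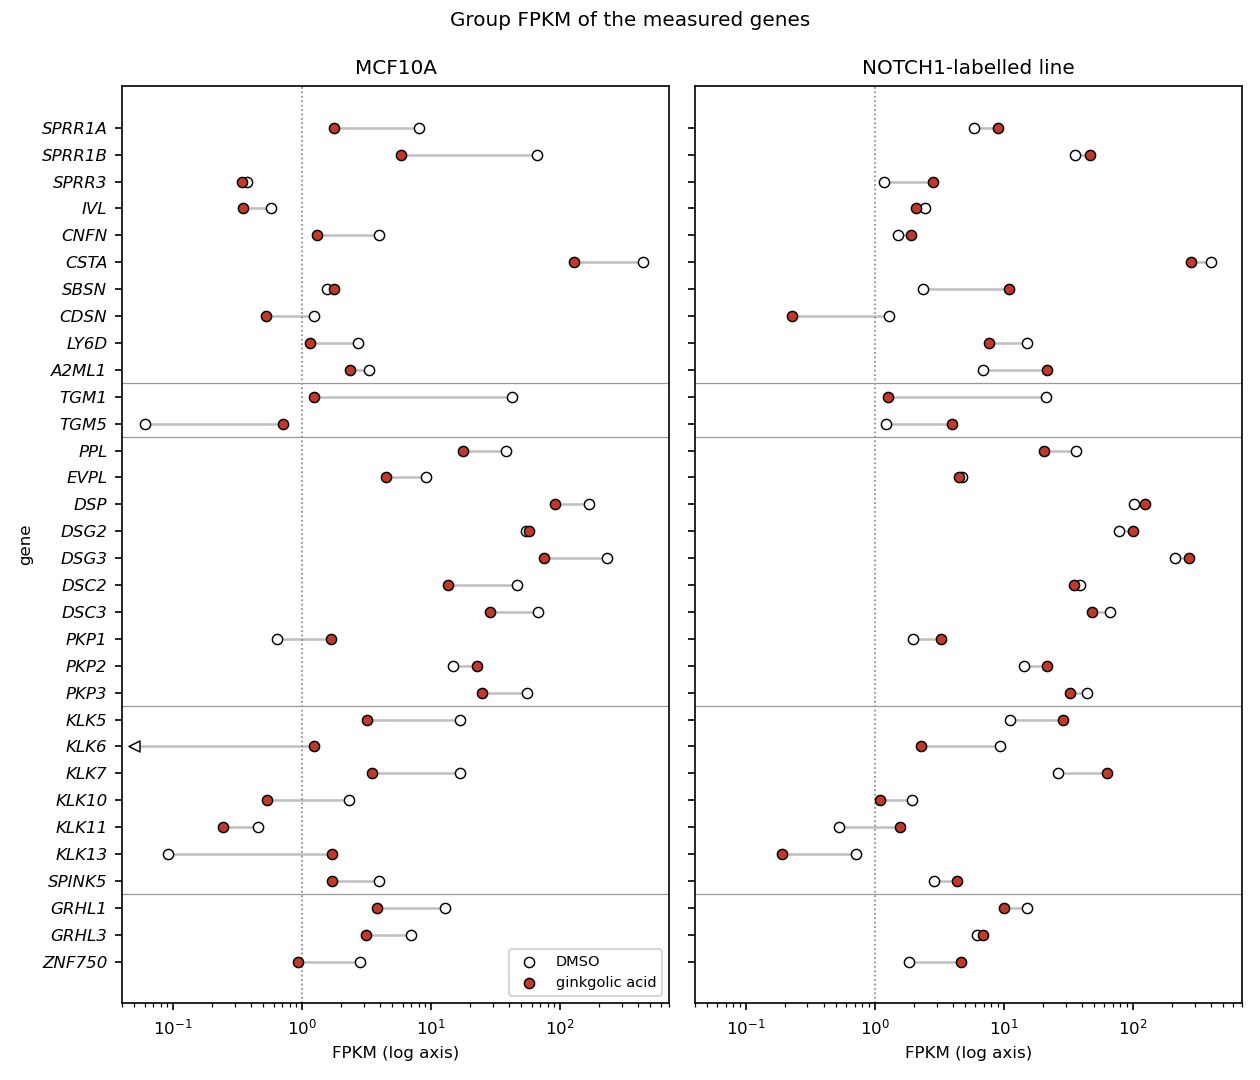
Group FPKM (log axis) of the 32 genes that reached 1 FPKM in any group, in MCF10A (left) and the NOTCH1-labelled line (right), open points for DMSO and red points for ginkgolic acid, 1 value per group with no error bar. Horizontal lines separate envelope genes, transglutaminases, plakins and desmosome genes, kallikreins with SPINK5, and transcription factors, the dotted line marks 1 FPKM, and the triangle marks KLK6, listed at 0 in MCF10A with DMSO. In MCF10A most red points lie left of the open ones, TGM1 farthest, while in the NOTCH1-labelled line most pairs lie close together.

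In MCF10A, ginkgolic acid went with lower levels over most of the set. Of 27 measured genes with a ratio, 20 were at least 2-fold lower (74.1%), where 15.2% of all 17666 measured genes and 15.3% of protein-coding genes were. The other direction held 2 genes, PKP1 and KLK13, where 24.4% of all measured genes and 15.9% of protein-coding genes were at least 2-fold higher. The median log2 ratio of the set was -1.24, and that of all measured genes was 0.07. With 1 FPKM added to each value, CDSN, LY6D, EVPL, PKP1, SPINK5, GRHL3 and ZNF750 no longer passed 2-fold. In these bulk samples fewer differentiating cells and less RNA per cell cannot be told apart.

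In the NOTCH1-labelled line the same compound went with little net shift. Of 31 measured genes, 8 were at least 2-fold higher (25.8%, against 18.9% of all 19524 measured genes), namely SPRR3, SBSN, A2ML1, TGM5, KLK5, KLK7, KLK11 and ZNF750. At least 2-fold lower were 3 (9.68%, against 18.9%), namely CDSN, TGM1 and KLK6. The remaining 20 lay within 2-fold, and the median log2 ratio was 0.35 beside 0.06 for all measured genes. Of protein-coding genes 17.6% were at least 2-fold higher and 13.2% lower. With a minimum of 5 FPKM, 4 of 20 genes of the set were higher and 2 lower, near the 19.6% and 9.34% of all genes. With 1 FPKM added, SPRR3, CDSN, KLK11 and ZNF750 no longer passed 2-fold.

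**Figure D2:**
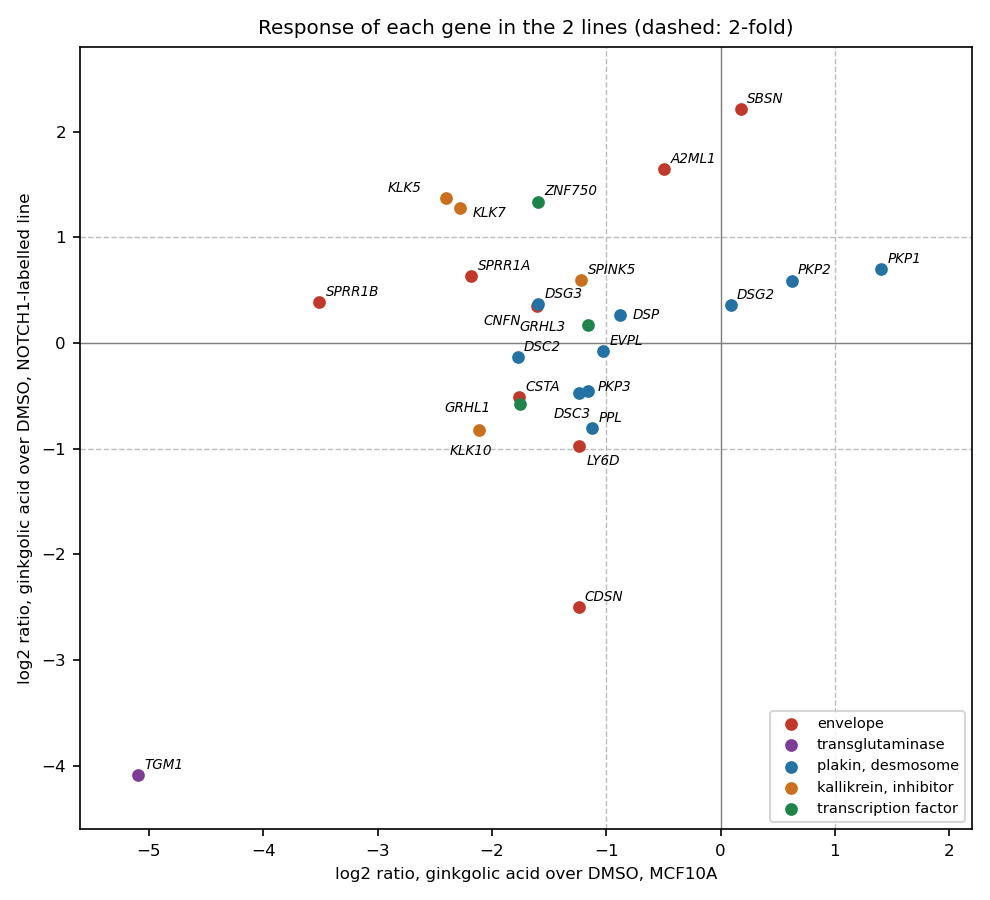
Log2 ratio of ginkgolic acid over DMSO in MCF10A (x axis) against the NOTCH1-labelled line (y axis) for the 26 genes measured in both lines, coloured by role, with dashed lines at 2-fold. TGM1 lies at -5.10 and -4.09, low in both, while KLK5, KLK7 and ZNF750 lie beyond 2-fold low in MCF10A and beyond 2-fold high in the NOTCH1-labelled line.

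The small proline-rich genes are short envelope precursors in the epidermal differentiation complex on chromosome 1, and SPRR1B (chr1:153003678-153005376 in hg19) was the most abundant of them. SPRR1B was at 66.4 FPKM with DMSO and 5.82 with ginkgolic acid in MCF10A, an 11.4-fold lower value. Its NOTCH1-labelled values were 35.5 with DMSO and 46.3 with ginkgolic acid, so only the MCF10A pair differed beyond 2-fold. SPRR1A followed it at a lower level, with 8.04 and 1.77 FPKM in MCF10A and 5.82 and 8.998 in the NOTCH1-labelled line. SPRR3 was under 1 FPKM in MCF10A, at 0.374 with DMSO and 0.343 with ginkgolic acid, and went from 1.17 to 2.83 in the NOTCH1-labelled line. The coding sequences of SPRR1A and SPRR1B differ by 10 edits over 267 bases (96.3% identity), and those of the SPRR2 genes are 96.8% to 98.6% identical, so the split of reads within each pair or group is uncertain. Between SPRR1 and SPRR2 genes the identity is 57.3% to 59.2%.

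Promoters are shown for 5 genes, chosen after their values were seen: the near-identical SPRR1 pair, lower in treated MCF10A cells, and SPRR3, SBSN and KLK5, higher in the treated NOTCH1-labelled line. Each run is the 250 bases before the RefSeq transcription start, 5′ to 3′ on the gene's strand, build GRCh38.p14. Capitals mark matches, on either strand, to the AP-1 motif TGANTCA and to the RBPJ motif TGGGAA, the core bound by the DNA-binding partner of NOTCH1.
SPRR1A: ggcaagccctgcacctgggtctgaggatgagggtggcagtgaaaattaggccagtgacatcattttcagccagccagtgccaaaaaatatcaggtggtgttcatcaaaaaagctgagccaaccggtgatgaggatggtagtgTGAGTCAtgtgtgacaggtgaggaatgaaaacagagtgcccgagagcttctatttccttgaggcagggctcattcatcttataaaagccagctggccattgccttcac
SPRR1B: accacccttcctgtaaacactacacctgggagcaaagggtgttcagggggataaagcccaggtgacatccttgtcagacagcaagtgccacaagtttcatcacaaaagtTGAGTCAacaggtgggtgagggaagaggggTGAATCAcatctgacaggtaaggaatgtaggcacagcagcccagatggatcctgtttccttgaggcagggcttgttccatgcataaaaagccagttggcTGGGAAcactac
SPRR3: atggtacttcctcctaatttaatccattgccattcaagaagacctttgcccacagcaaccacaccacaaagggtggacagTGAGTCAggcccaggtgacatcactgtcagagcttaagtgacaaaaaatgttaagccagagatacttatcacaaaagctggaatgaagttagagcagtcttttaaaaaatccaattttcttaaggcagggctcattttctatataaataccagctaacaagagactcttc
SBSN: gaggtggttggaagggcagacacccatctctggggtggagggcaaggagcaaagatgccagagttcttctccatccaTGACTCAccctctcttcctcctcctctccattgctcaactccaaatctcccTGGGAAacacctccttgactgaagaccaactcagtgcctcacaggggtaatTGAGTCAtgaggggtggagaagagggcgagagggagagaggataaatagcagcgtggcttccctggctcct
KLK5: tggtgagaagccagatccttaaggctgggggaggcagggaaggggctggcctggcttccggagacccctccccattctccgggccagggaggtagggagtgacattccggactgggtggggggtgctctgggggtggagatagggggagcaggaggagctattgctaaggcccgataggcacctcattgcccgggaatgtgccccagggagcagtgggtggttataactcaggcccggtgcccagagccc
These runs lie at chr1:152983831-152984080 (SPRR1A), chr1:153030953-153031202 (SPRR1B), chr1:153001499-153001748 (SPRR3), chr19:35528312-35528561 on the minus strand (SBSN) and chr19:50953039-50953288 on the minus strand (KLK5). The SPRR1A run holds 1 AP-1 match, 108 to 102 bases before the start, and SPRR1B holds 2, at 141 to 135 and 111 to 105, with an RBPJ match at 12 to 7. SPRR3 has its AP-1 match at 170 to 164, and SBSN has AP-1 matches at 173 to 167 and 71 to 65 with an RBPJ match at 122 to 117. The KLK5 run holds no match to either motif.

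Of the 47 genes, 36 had a promoter in the RefSeq table. An AP-1 match stood in 11 of these 36 (30.6%), against 6.57% of 35116 promoters of the same length. All of them but SBSN lie on chromosome 1: SPRR1A, SPRR1B, SPRR2A, SPRR2F, SPRR3, IVL, FLG, FLG2, RPTN and CRNN. No available promoter of a desmosome, kallikrein or transcription factor gene of the set held an AP-1 match. Among the 24 measured genes it stood in 5 (20.8%), namely SPRR1A, SPRR1B, SPRR3, SBSN and IVL, all printed above except IVL. Among the 10 with a promoter that were lower in MCF10A and within 2-fold in the other line it stood in 2 (20.0%). Those 2 were SPRR1A and SPRR1B, of near-identical coding sequence. The promoters of A2ML1, TGM5, KLK7 and KLK11, also higher in the treated NOTCH1-labelled line, held no AP-1 match and are not printed. The Grainyhead-like motif AACNGGTT was in 3 of 36 (8.33%, against 1.49%), and the RBPJ motif in 10 of 36 (27.8%, against 20.8%). The 6 desmoglein and desmocollin promoters held none of the 3 motifs in this window. No motif shares letters with another at the matches shown.

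Among the other envelope genes, CSTA, which encodes the protease inhibitor cystatin A (chr3:122044091-122060819 in hg19), was the most abundant of the set. It stood at 437 FPKM with DMSO and 129 with ginkgolic acid in MCF10A, and at 401 and 281 in the NOTCH1-labelled line. The direction was the same in both lines, and the MCF10A pair alone passed 2-fold. CNFN, which encodes cornifelin, was at 3.97 and 1.31 FPKM in MCF10A and at 1.498 and 1.91 in the NOTCH1-labelled line. Involucrin (IVL), the classic early precursor, was low, at 0.568 and 0.345 FPKM in MCF10A and 2.42 and 2.08 in the NOTCH1-labelled line.

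SBSN and A2ML1 joined SPRR3 as the envelope genes at least 2-fold higher after ginkgolic acid in the NOTCH1-labelled line. SBSN, which encodes suprabasin (chr19:36014269-36019253 in hg19), was at 2.34 FPKM with DMSO and 10.8 with ginkgolic acid there, 4.64-fold higher. In MCF10A its values were 1.55 and 1.75, close to each other. A2ML1, a secreted protease inhibitor of the alpha-2-macroglobulin family, was at 6.88 and 21.5 FPKM in the NOTCH1-labelled line and at 3.30 and 2.35 in MCF10A. The MCF10A ratios of both genes were within 2-fold, with log2 values of 0.18 for SBSN and -0.49 for A2ML1.

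CDSN and LY6D were lower with the compound in both lines. CDSN encodes corneodesmosin, an adhesive protein of late desmosomes, and was at 1.23 and 0.520 FPKM in MCF10A and 1.29 and 0.228 in the NOTCH1-labelled line. LY6D, a surface protein of squamous epithelia, was at 2.71 and 1.15 FPKM in MCF10A and at 15.0 and 7.61 in the NOTCH1-labelled line, where its log2 ratio of -0.98 lay just inside the 2-fold rule. Across the envelope genes, 6 of 8 measured in MCF10A were at least 2-fold lower and none higher, while in the NOTCH1-labelled line 3 of 10 were higher and 1 lower. The shares over all measured genes were 15.2% lower and 24.4% higher in MCF10A and 18.9% each way in the NOTCH1-labelled line, which serve each count by role below. Over protein-coding genes they were 15.3% lower and 15.9% higher in MCF10A, and 13.2% lower and 17.6% higher in the NOTCH1-labelled line.

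TGM1 encodes the membrane-anchored transglutaminase that cross-links envelope precursors (chr14:24718320-24733638 in hg19), and it had the most negative ratio of the set in both lines. It was at 42.0 FPKM with DMSO and 1.23 with ginkgolic acid in MCF10A, 34.2-fold lower. It was at 21.4 and 1.25 FPKM, 17.0-fold lower, in the NOTCH1-labelled line. With 1 FPKM added, the log2 ratios were -4.27 in place of -5.10 and -3.31 in place of -4.09, so the size of the fold rests on the low treated values. The 2 treated values were nearly alike, and both lay near the 90th percentile of olfactory receptor genes in the same groups, 1.13 and 0.879 FPKM. Olfactory receptors are not known to be made by these cells and serve as a gauge of low values, chosen after the data were seen. TGM5, another epidermal transglutaminase, was at 0.0601 and 0.704 FPKM in MCF10A and at 1.21 and 3.99 in the NOTCH1-labelled line, opposite to TGM1 in direction. A small RNA lies inside TGM5, and the tables do not separate its reads.

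The plakins, which form the scaffold under the envelope and the inner desmosomal plaque, were lower with ginkgolic acid in MCF10A. Periplakin (PPL) was at 38.2 FPKM with DMSO and 17.5 with ginkgolic acid, and in the NOTCH1-labelled line at 35.9 and 20.5. Envoplakin (EVPL) was at 9.03 and 4.43 in MCF10A and at 4.72 and 4.48 in the NOTCH1-labelled line. Desmoplakin (DSP) was at 168 and 91.6 in MCF10A, within 2-fold, and at 102 and 123 in the NOTCH1-labelled line. With log2 ratios of -1.03 and -0.88 in MCF10A, EVPL and DSP stood on either side of the 2-fold rule and differed little from each other.

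Among the desmosomal cadherins, DSG3 was the most abundant and DSG2 the one whose 2 MCF10A values were nearly alike. DSG3 (chr18:29027665-29058665 in hg19), the desmoglein of basal stratified cells, was at 228 FPKM with DMSO and 75.4 with ginkgolic acid in MCF10A. Its values in the NOTCH1-labelled line were 210.1 and 270.5. DSG2, which is also made in simple epithelia, was at 54.0 and 57.4 FPKM in MCF10A and at 78.0 and 99.8 in the NOTCH1-labelled line. The lower value after treatment in MCF10A was thus one of DSG3 and not of DSG2.

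Both measured desmocollins were lower in treated MCF10A cells. DSC2 was at 45.9 FPKM with DMSO and 13.4 with ginkgolic acid there, and at 38.5 and 35.1 in the NOTCH1-labelled line. DSC3, the form found in basal layers, was at 67.1 and 28.4 in MCF10A and at 66.4 and 48.0 in the NOTCH1-labelled line. With an unknown factor between the separately normalized lines, their DMSO values were close, at log2 ratios of -0.25 for DSC2 and -0.02 for DSC3. The treated log2 ratios, NOTCH1-labelled line over MCF10A, were 1.39 and 0.76, the latter within 2-fold, beside a median of 0.29 over all genes.

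The plakophilins, which cluster desmosomal cadherins at the plaque, split in the same manner in both lines. PKP3 was at 55.5 FPKM with DMSO and 24.8 with ginkgolic acid in MCF10A, and at 44.4 and 32.4 in the NOTCH1-labelled line. PKP2 was higher with the compound by nearly the same factor in each line, at 14.6 and 22.5 FPKM in MCF10A and 14.3 and 21.5 in the NOTCH1-labelled line. PKP1 was low, at 0.632 and 1.68 FPKM in MCF10A and 1.99 and 3.22 in the NOTCH1-labelled line. Of the 10 plakin and desmosome genes measured, 6 were at least 2-fold lower and 1 higher in MCF10A, and all 10 lay within 2-fold in the NOTCH1-labelled line. Of all measured genes 15.2% were lower and 24.4% higher in MCF10A, and 18.9% each way in the other line. The joined row of JUP and KRT17, plakoglobin and a basal keratin, was at 4504 FPKM with DMSO and 1052 with ginkgolic acid in MCF10A and at 1362 and 1854 in the NOTCH1-labelled line, and it cannot be divided between the 2 genes.

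Ratios within a group carry no factor between the separately normalized tables, so they can be compared across lines. DSG3 exceeded DSG2 by 4.22 times in MCF10A with DMSO and by 1.31 times with ginkgolic acid. In the NOTCH1-labelled line the same ratio was 2.69 and 2.71. DSG2 made up 19.1% of summed desmoglein FPKM in MCF10A with DMSO and 43.1% with the compound, beside 27.1% and 26.9% in the NOTCH1-labelled line. The desmoglein makeup thus differed by treatment in 1 line and hardly in the other.

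The plakophilin makeup differed by treatment in both lines. PKP3 exceeded PKP2 by 3.79 times with DMSO and 1.10 times with ginkgolic acid in MCF10A, and by 3.11 and 1.51 times in the NOTCH1-labelled line. PKP2 made up 20.7% and 46.0% of summed plakophilin FPKM in MCF10A, and 23.5% and 37.6% in the NOTCH1-labelled line. DSC2 made up 40.5% of the desmocollins with DMSO and 31.8% with the compound in MCF10A, against 36.5% and 42.0% in the NOTCH1-labelled line.

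**Figure D3:**
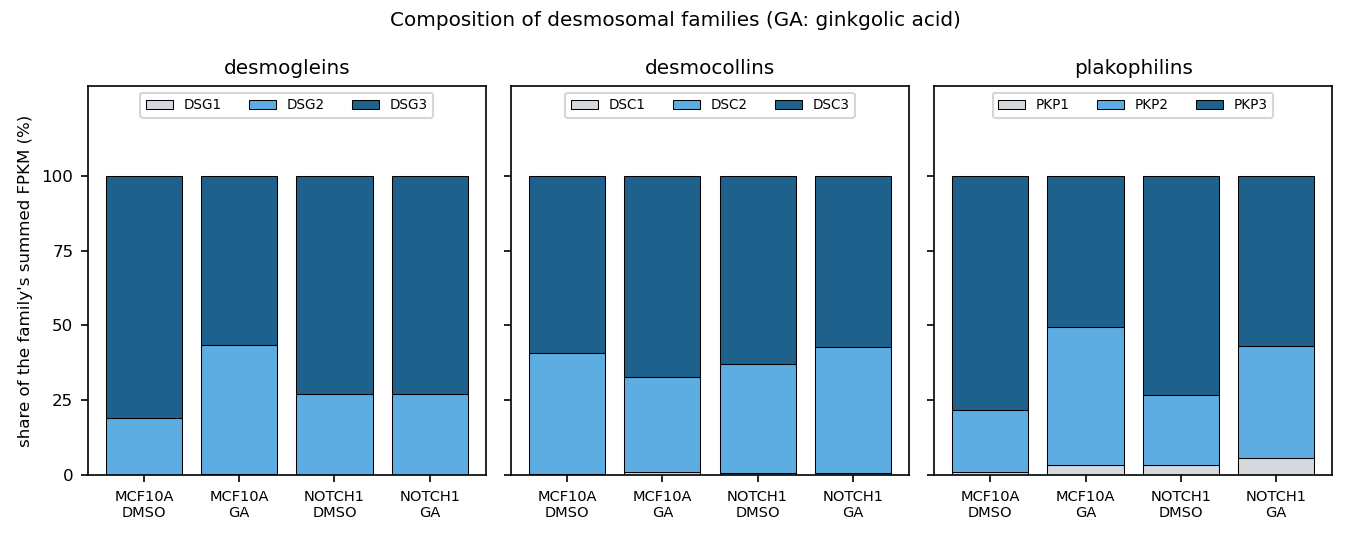
Share of each gene in the summed FPKM of its family (%), for desmogleins, desmocollins and plakophilins in the 4 groups, with NOTCH1 standing for the NOTCH1-labelled line. Each bar is 1 group value with no error bar. The DSG2 share stands at 43.1% in treated MCF10A cells and between 19.1% and 27.1% in the other 3 groups, while the PKP2 share is larger with ginkgolic acid in both lines.

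The kallikreins lie in a cluster on chromosome 19, and the pair KLK5 and KLK7 had opposite directions in the 2 lines. KLK5 (chr19:51446561-51456344 in hg19), a trypsin-like protease that activates other kallikreins, was at 16.7 FPKM with DMSO and 3.15 with ginkgolic acid in MCF10A, 5.29-fold lower. It was at 11.2 and 28.9, 2.58-fold higher, in the NOTCH1-labelled line. KLK7 (chr19:51479729-51487337 in hg19), a chymotrypsin-like protease, was at 16.8 and 3.46 FPKM in MCF10A, 4.85-fold lower, and at 26.1 and 63.2 in the NOTCH1-labelled line, 2.42-fold higher. The 2 proteases kept close company: KLK7 exceeded KLK5 by 1.01 times with DMSO and 1.10 times with ginkgolic acid in MCF10A, and by 2.34 and 2.19 times in the NOTCH1-labelled line.

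SPINK5, which encodes the inhibitor LEKTI, was at 3.95 FPKM with DMSO and 1.70 with ginkgolic acid in MCF10A and at 2.86 and 4.31 in the NOTCH1-labelled line. It took the direction of its target proteases in each line with a smaller ratio. KLK7 therefore exceeded SPINK5 by 4.24 times with DMSO and 2.03 times with the compound in MCF10A, but by 9.15 and 14.7 times in the NOTCH1-labelled line. For KLK5 the corresponding ratios to SPINK5 were 4.22 and 1.85, then 3.92 and 6.70.

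The other kallikreins with rows of their own were less abundant in all 4 groups than KLK7. KLK11 had the same opposite directions as KLK5 and KLK7, under 1 FPKM in MCF10A, and the rest did not. KLK10 was lower with the compound in both lines, at 2.29 and 0.529 FPKM in MCF10A and 1.94 and 1.09 in the NOTCH1-labelled line. KLK6 was listed at 0 with DMSO and at 1.23 FPKM with ginkgolic acid in MCF10A, so it has no ratio there, and stood at 9.29 and 2.28 in the NOTCH1-labelled line. KLK11 was at 0.451 and 0.241 in MCF10A and at 0.522 and 1.57 in the NOTCH1-labelled line. KLK13 was at 0.0910 and 1.70 in MCF10A and at 0.717 and 0.191 in the NOTCH1-labelled line. The joined row of KLK8 and KLK9 was at 34.2 and 5.16 FPKM in MCF10A and 34.0 and 34.6 in the NOTCH1-labelled line. Of the 5 kallikrein and inhibitor genes with a ratio in MCF10A, 4 were at least 2-fold lower and 1 higher, and of 6 in the NOTCH1-labelled line, 3 were higher and 1 lower. With 1 of 5 higher (KLK13) and 1 of 6 lower (KLK6), these sides are near the all-gene shares of 24.4% higher in MCF10A and 18.9% lower in the NOTCH1-labelled line.

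The 3 transcription factors were at least 2-fold lower with ginkgolic acid in MCF10A. GRHL1 was at 12.8 FPKM with DMSO and 3.79 with the compound there, and at 15.0 and 10.0 in the NOTCH1-labelled line. GRHL3 was at 6.91 and 3.10 in MCF10A and at 6.14 and 6.89 in the NOTCH1-labelled line. ZNF750, which acts downstream of p63 in keratinocytes, was at 2.79 and 0.922 in MCF10A and at 1.83 and 4.63 in the NOTCH1-labelled line. ZNF750 was the 1 factor of the 3 beyond 2-fold in the NOTCH1-labelled line, in the upward direction.

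Values near 1 FPKM need the gauge of low values beside them. The median olfactory receptor gene stood at 0.480 FPKM in treated and 0.144 in DMSO-exposed MCF10A cells, and at 0.228 and 0.480 in the NOTCH1-labelled line. At least 1 FPKM was reached by 15.5% and 3.00% of these receptors in MCF10A and by 7.88% and 14.4% in the NOTCH1-labelled line. The 15 genes of the set under 1 FPKM took the same directions, with 13 higher after ginkgolic acid in MCF10A and 11 lower after it in the NOTCH1-labelled line. PKP1 and KLK13, the genes at least 2-fold higher in MCF10A, and CDSN and KLK13 in the NOTCH1-labelled line also differed in the direction of the receptors of their line, at levels of the same order. The lower values of the abundant genes in MCF10A ran opposite to the receptors. The part of this low signal in the results was not tested.

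Of the 47 genes, 21 overlap a gene on the opposite strand in GENCODE. The measured ones are CDSN, LY6D, A2ML1, PPL, EVPL, DSG2, DSC2, PKP2, KLK5, KLK6, KLK7, KLK10, GRHL3 and ZNF750. The sources used here do not give the strand setting of the counting, so reads of the partners cannot be told apart. The locus spans in the tables are also shared by FLG, FLG2 and HRNR, by SPRR2E and SPRR2F, and by DSC1 and DSC2.

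Before centring on the median gene, the response differed between the lines by 2-fold or more for most of the set. Over the 26 genes with ratios in both lines, the log2 ratio in the NOTCH1-labelled line minus that in MCF10A was at least 1 for 17 genes, where 21.6% of 15498 genes were. It was at most -1 for 1 gene, CDSN, where 22.5% of all genes were. Of protein-coding genes, 23.5% were at 1 or more and 13.9% at -1 or less. With 1 FPKM added to each value, CDSN, TGM1, KLK10 and GRHL1 no longer passed, and the CDSN difference went from -1.26 to -0.35. The differences were 3.89 for SPRR1B, 3.77 for KLK5, 3.55 for KLK7, 2.93 for ZNF750 and 2.81 for SPRR1A. For PKP2 the difference was -0.03, and for PKP1 it was -0.71. The median difference was 1.27 in the set and 0.22 over all genes. Genes with at least 1 FPKM in every group compared had a median difference of 0.40, and relative to it 11 of the 26 genes were higher and 2 lower. CSTA, TGM1, DSP, KLK10, GRHL1 and GRHL3 no longer passed on that scale, and PKP1 joined CDSN on the lower side. The share of all genes on that scale was not computed. The difference was not tested, since no replicate values were at hand.

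Sorted by both lines together, 15 of the 26 genes (57.7%, against 9.21% of all genes) were at least 2-fold lower in MCF10A and within 2-fold in the NOTCH1-labelled line. They were SPRR1A, SPRR1B, CNFN, CSTA, LY6D, PPL, EVPL, DSG3, DSC2, DSC3, PKP3, KLK10, SPINK5, GRHL1 and GRHL3. They came from every role with a measured gene except the transglutaminases, and no gene of the filaggrin family was measured. KLK5, KLK7 and ZNF750 were lower in MCF10A and higher in the NOTCH1-labelled line (11.5%, against 1.19%). CDSN and TGM1 were lower in both (7.69%, against 4.0%). With 1 FPKM added to each value, ZNF750 and CDSN passed 2-fold in neither line. LY6D, EVPL, SPINK5 and GRHL3 then no longer passed in MCF10A. No gene of the set was at least 2-fold higher in both lines, where 5.16% of all genes were, and none was higher in MCF10A and lower in the NOTCH1-labelled line, where 4.90% were. For protein-coding genes these last 2 shares were 4.76% and 2.70%.

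Side by side, the DMSO groups of the lines were more alike than the treated groups, with the limit that an unknown factor lies between the tables. With DMSO, the NOTCH1-labelled line exceeded MCF10A by 2-fold or more in 6 of 29 genes (20.7%, against 25.9% of all genes) and 1, CNFN, was lower (against 10.2%), with a median log2 ratio of -0.12. With ginkgolic acid it did so in 19 of 31 genes (61.3%, against 20.0%) and 1, KLK13, was lower (against 13.4%), with a median of 1.34 beside 0.29 over all genes. Of protein-coding genes 16.3% were higher and 9.53% lower with DMSO, and 18.1% and 8.12% with ginkgolic acid. DSG3 shows the pattern, with log2 ratios between lines of -0.12 for DMSO and 1.84 for ginkgolic acid. For TGM1 the treated groups were the more alike, with -0.98 for DMSO and 0.03 for ginkgolic acid. Its treated values, 1.23 FPKM in MCF10A and 1.25 in the NOTCH1-labelled line, lay near the gauge of low values. These comparisons share their groups with those within the lines and add no separate support.

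**Figure D4:**
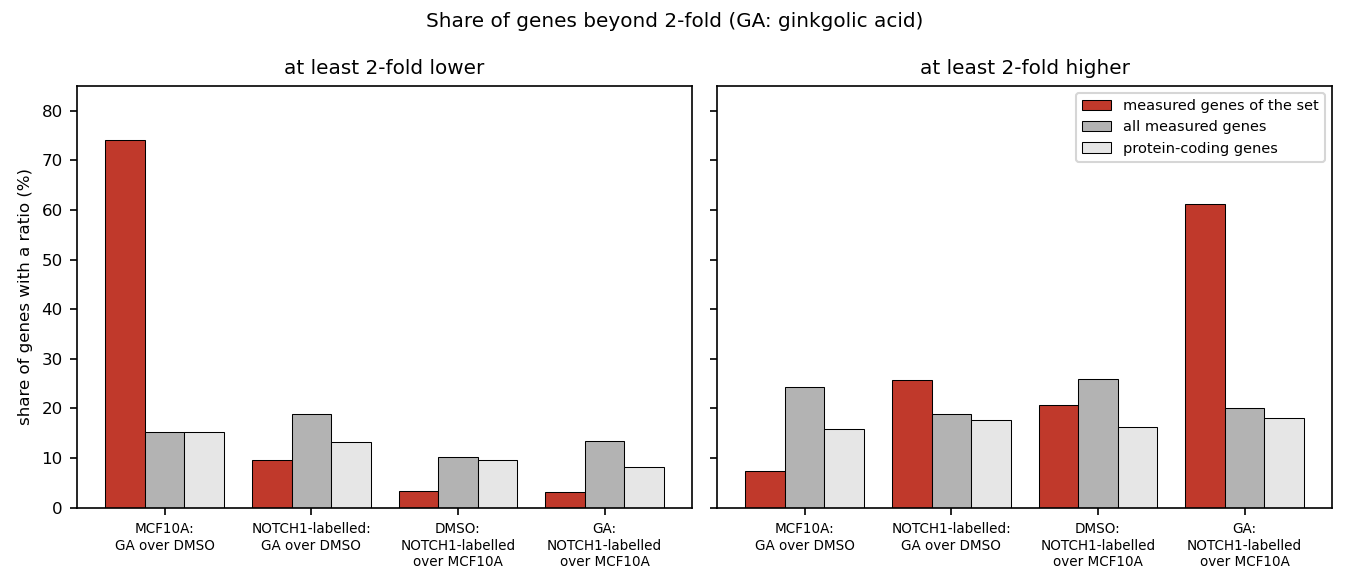
Share of genes (%) at least 2-fold lower (left) and at least 2-fold higher (right) in 4 comparisons, for the measured genes of the set (red), all measured genes (grey) and protein-coding genes (light grey). The set stands apart in MCF10A, with 74.1% lower beside 15.2% of all genes, and in the treated groups set side by side, with 61.3% higher in the NOTCH1-labelled line beside 20.0%.

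Other genes of the same pathways were read from 5 lists, each to be set against 15.2% lower and 24.4% higher over all measured genes in MCF10A and 18.9% each way in the NOTCH1-labelled line. Of 13 other envelope genes measured in MCF10A, 5 were at least 2-fold lower and 2 higher, and of 12 in the NOTCH1-labelled line, 1 was lower and 4 higher. PI3, which encodes elafin, a cross-linked protease inhibitor, was at 91.5 FPKM with DMSO and 7.38 with ginkgolic acid in MCF10A. AQP3, a water and glycerol channel, was at 58.6 and 13.1, and S100A11 at 79.2 and 21.1. In the NOTCH1-labelled line the named genes were higher with the compound: ANXA1, an annexin of the envelope, was at 541 and 1420 FPKM, DMKN at 53.5 and 171, and CST6, a cystatin that restrains cathepsins, at 3.91 and 22.4.

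Among 15 other kallikreins and protease inhibitors measured in MCF10A, 7 were at least 2-fold lower (against 15.2%) and 4 higher (against 24.4%, a share near the background), and of 16 in the NOTCH1-labelled line 1 was lower and 5 higher (against 18.9% each way). SLPI, a secreted inhibitor of leukocyte proteases, was at 1286 FPKM with DMSO and 242 with ginkgolic acid in MCF10A. SERPINB13 was at 30.6 and 3.63 there, and SERPINB3 at 9.43 and 1.88. In the NOTCH1-labelled line the cathepsin gene CTSL2, also called CTSV, was at 4.54 and 59.4 FPKM, the membrane protease gene PRSS8 at 3.46 and 20.3, and SPINK6, an inhibitor of kallikreins, at 1.01 and 4.51.

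The junction list had 3 of 9 measured genes at least 2-fold lower and none higher in MCF10A, and 3 of 10 higher and none lower in the NOTCH1-labelled line, against 15.2% lower in MCF10A and 18.9% higher in the other line. PERP, a membrane protein of desmosomes, was at 971 FPKM with DMSO and 260.0 with ginkgolic acid in MCF10A, with E-cadherin (CDH1) at 96.6 and 39.2 and P-cadherin (CDH3) at 247 and 103. In the NOTCH1-labelled line MLLT4, which encodes afadin, was at 36.7 and 91.6, and the nectin genes PVRL1 and PVRL4 were at 5.47 and 12.98 and at 23.03 and 51.1. Barrier lipid genes were mostly within 2-fold: in MCF10A 1 of 12 was lower (DEGS1, at 109 and 42.5 FPKM) and 2 higher (CERS3, at 1.10 and 3.89, and ELOVL4, at 1.82 and 4.83), and in the NOTCH1-labelled line 2 of 15 were lower and 1 higher (ELOVL4, at 5.25 and 16.5).

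Of 21 other regulators of keratinocyte differentiation in MCF10A, 9 were at least 2-fold lower (against 15.2%) and 1 higher (against 24.4%), and of 20 in the NOTCH1-labelled line 4 were lower, near the background of 18.9%, and 8 higher (against 18.9%). EHF, an epithelial ETS factor, was lower with ginkgolic acid in both lines, at 105 and 2.36 FPKM in MCF10A and 129 and 29.2 in the NOTCH1-labelled line. The kinase gene RIPK4 was at 14.9 and 3.19 in MCF10A. CEBPB was higher with the compound in the NOTCH1-labelled line, at 29.5 and 203 FPKM, and GRHL2, another Grainyhead-like gene, was lower there, at 8.18 and 1.79.

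**Figure D5:**
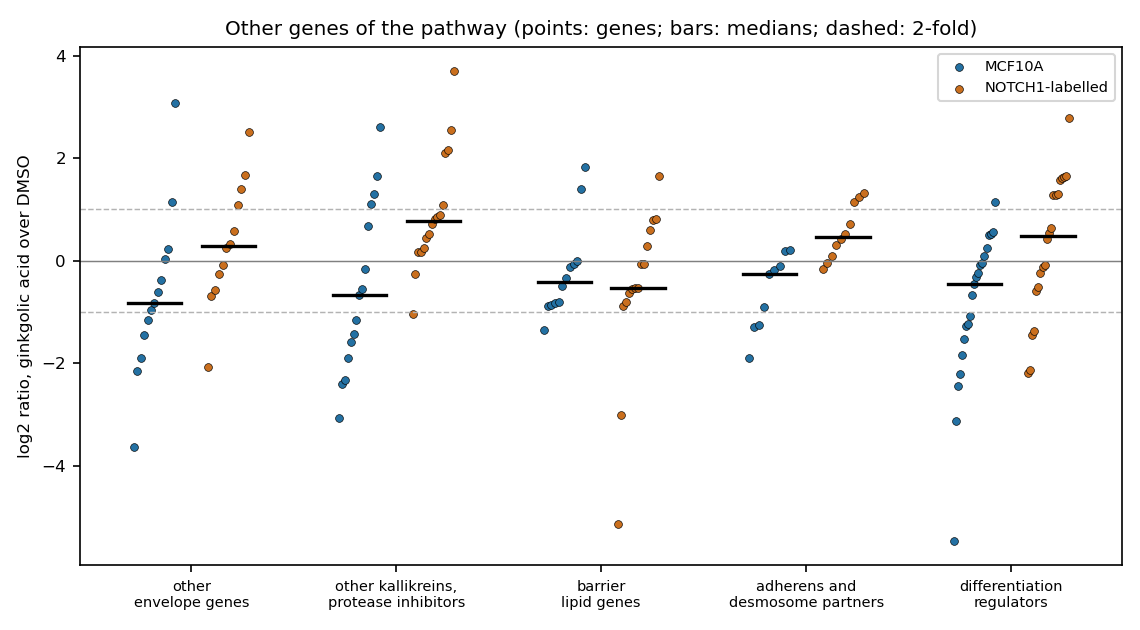
Log2 ratio of ginkgolic acid over DMSO for each measured gene of 5 further lists (points), with the list median (bar), in MCF10A (blue) and the NOTCH1-labelled line (orange), and dashed lines at 2-fold. Medians are below 0 in MCF10A for the 5 lists, from -0.83 to -0.26, and above 0 in the NOTCH1-labelled line except for the barrier lipid genes, at -0.53.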

How the data were processed

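RNA of 8 samples in 4 groups was prepared with an RNeasy kit and sequenced from ScriptSeq Complete Gold libraries, per the labels' protocols. The submitters' processing notes list Cuffdiff 2.1.1 and Cufflinks 2.1.1, TopHat2 2.0.8b with Bowtie2 2.1.0, and GRCh37 (hg19). The sources used here do not give the annotation, the settings or how a group's 2 samples were combined. The authors deposited 2 tables of FPKM values, 1 per line and normalized separately, per the file headers with 1 value per gene and group. Depth is unknown, replicate error cannot be computed, and no test was run although fits were planned for values per sample.

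Rows naming no gene (15977 and 5455) or joining several (1575 and 1570), small RNAs, repeated symbols, spans under 200 bases and rows off the main chromosomes were dropped, using GENCODE release 29 for gene types. Log2 ratios had no pseudocount, and a gene listed at 0 in a group had no ratio. The size rule was 2-fold among genes with at least 1 FPKM in either group. Members and lists were chosen with earlier results of these data known. Every member with a row of its own and at least 1 FPKM in any group is named with its 4 values, and other lists give up to 3 genes per line, those with the largest ratio beyond 2-fold among genes at 1 FPKM or more in both conditions. A gene that this rule names is not reported here. The olfactory receptor gauge was chosen after the data were seen. Promoters came from RefSeq (GRCh38.p14), with the first listed start used, and coding sequences from GENCODE transcripts. Alternatives were other minimum levels, a pseudocount of 1 FPKM, centring on the median gene, joined rows, the mean, and folds of 1.5 and 4. Scripts ran in Python 3.11.15 (pandas 2.3.3, numpy 2.4.6, matplotlib 3.10.9) and were tested on simulated data.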

Additional observations from a re-analysis of the deposited data

Results flagged for a closer look

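KLK5 and KLK7 differed by at least 2-fold in opposite directions in the 2 lines, lower with ginkgolic acid in MCF10A and higher in the NOTCH1-labelled line. The log2 ratios differed between lines by 3.77 for KLK5 and 3.55 for KLK7. Each line gives 1 value per group, so the differences were not tested. In any size, 11 of 26 genes of the set (42.3%) were lower in MCF10A and higher in the NOTCH1-labelled line, beside 24.5% of all genes. With opposite signs in either direction counted, the share was 42.3% in the set and 45.9% over all genes.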

How the results depend on the processing

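No paired analysis was possible because the tables hold 1 value per gene and group, and leaving out samples could not be run for the same reason. Of 168 ratios of single genes recomputed, 13 moved by at least 1.5-fold and 0 changed sign while beyond 2-fold. Of the recomputed counts and medians of the set, 80 kept within 1.5 times or moved little, and 35 counts did not.

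Without a minimum FPKM, 5 of 42 genes instead of 2 of 27 were higher in MCF10A. In the NOTCH1-labelled line 8 of 42 instead of 3 of 31 were lower. In the difference between lines 8 of 38 instead of 1 of 26 were lower. With DMSO 13 of 41 instead of 6 of 29 were higher in the NOTCH1-labelled line. With ginkgolic acid 6 of 43 instead of 1 of 31 were lower there. With a minimum of 5 FPKM, 0 were higher in MCF10A, 4 instead of 8 higher in the NOTCH1-labelled line, 11 instead of 17 higher and 0 lower in the difference, 2 higher and 0 lower with DMSO, and 12 instead of 19 higher and 0 lower with ginkgolic acid.

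With a pseudocount of 1 FPKM, 5 were higher in the NOTCH1-labelled line and 0 lower with DMSO. Centring on the median gene gave 11 higher and 2 lower in the difference. Joined rows gave 2 lower with DMSO. At 1.5-fold, 6 were lower in the NOTCH1-labelled line, 2 lower in the difference and 6 lower with DMSO. At 4-fold, 1 was higher and 6 instead of 20 lower in MCF10A, 1 higher in the NOTCH1-labelled line, 7 higher and 0 lower in the difference, 3 higher and 0 lower with DMSO, and 12 higher with ginkgolic acid. Restricted to the 22 genes that reached 1 FPKM in every group, an alternative chosen after seeing the data, 0 were higher in MCF10A, 4 higher and 1 lower in the NOTCH1-labelled line, 0 lower in the difference, 2 higher with DMSO and 0 lower with ginkgolic acid. The 20 of 27 genes lower in MCF10A became 14 of 17 with a minimum of 5 FPKM, where 16.7% of all genes were lower. With the pseudocount they became 14 of 28, and over those 22 genes 17. The cause of these shifts was not tested beyond what each alternative removes by its construction.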

Other observations

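The makeup of the 6 kallikreins with rows of their own also differed. KLK5 and KLK7 made up 46.0% and 46.2% of their summed FPKM in MCF10A with DMSO, and 30.6% and 33.6% with ginkgolic acid. There KLK6 went from 0.00% to 11.9% and KLK13 from 0.251% to 16.5%. Their treated values, 1.23 and 1.70 FPKM, were of the order of the gauge of low values. The joined row of KLK8 and KLK9, at 34.2 FPKM with DMSO and 5.16 with ginkgolic acid in MCF10A, is outside this sum. KLK6 made up 18.7% of the sum in the NOTCH1-labelled line with DMSO and 2.35% with ginkgolic acid, where KLK7 went from 52.5% to 65.0%. The summed level itself was 36.3 FPKM with DMSO and 10.3 with ginkgolic acid in MCF10A, and 49.8 and 97.2 in the NOTCH1-labelled line. Among the plakins, PPL made up 25.1% of the sum with DMSO and 13.8% with ginkgolic acid in the NOTCH1-labelled line, and 17.7% and 15.4% in MCF10A.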
